A study of Oryza sativa with 4 samples.

Results

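The leaf described here came from rice plants (Oryza sativa, cultivar Nipponbare) that carried the empty vector pActnos/Hmz, and it was measured on 2 of the 4 arrays of the series. These 2 arrays, replicates 1 and 2 of the group titled as leaf control, were chosen by their titles alone. The other 2 arrays, of plants that overexpress the response regulator OsRR6, entered no value below. The control plants were primary (T0) transformants regenerated from callus, so each had passed through tissue culture and selection on hygromycin. They then grew in hydroponics in a greenhouse until heading, the stage at which the panicle emerges, under a day of 12 h at 30°C and a night of 12 h at 25°C. The leaves were labelled as 75 days after germination. Nothing in the labels tells if separate plants or lines gave the 2 replicates, which leaf or part of a leaf was taken, or at what time of day, so the spread between the arrays may be technical. About 10 µg of total RNA per sample was turned into biotin-labelled target for a single-colour Affymetrix rice array.

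Each probe set of this array is a group of short probes for 1 transcript, and its signal is an intensity without further unit. Of the 57381 probe sets, the 123 array controls whose names begin with AFFX were set aside, and the other 57258 were ranked by their mean signal on the 2 control arrays. In the platform annotation 22436 of them belong to 1 gene, 95 to several, and the other 34727 are not listed. The annotated ones cover 17905 genes, 2457 of which have a usable name, and each gene is given below by its brightest probe set. A percentile is the place of a gene among those 17905. Pairs of values are signals on replicate 1 and then replicate 2. Because probes differ in how brightly they light up for the same amount of RNA, and no length correction is possible, the order of genes is an order of signals and not of transcript numbers.

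A mature rice leaf blade is mostly mesophyll, the tissue that holds the chloroplasts. Its RNA is dominated by a small set of nuclear genes for light harvesting, Rubisco and the carbon cycle around it. At heading the upper leaves are the main source of sucrose for the panicle, and their older neighbours begin to return nitrogen to it. Much of the rest of leaf biology is run by gene families, such as aquaporins, Aux/IAA proteins or MADS-box factors, whose members (paralogs) divide the work between tissues. The questions asked of the control arrays were therefore which named genes gave the highest signals, and which paralogs of a family gave signal in this leaf at all.

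Background was read on each array as the 95th percentile of 69 control probe sets for transcripts that are not from rice, and it was 30.0 on replicate 1 and 36.8 on replicate 2. A signal above it on both arrays was found for 31396 probe sets, 54.8% of those ranked. Another 6081 were above it on 1 array and 19781 on neither. Whether a probe set gave signal varied with its origin. Of the 31694 probe sets whose names begin with Os, 77.3% were above background on both arrays, against 27.1% of the 25500 whose names begin with OsAffx. For genes, taken by their brightest probe set, the share was 90.5%, and for genes with a usable name it was 92.4%. These shares are the yardstick for the families below.

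Signal was concentrated in few probe sets. The brightest 572, 1% of those ranked, held 21.7% of the summed mean signal, and the brightest 5725 held 71.1%. The 100th probe set had a mean signal of 20187, the 1000th of 7431, and the median probe set of 58.6. Signals above 10000 on both arrays came from 601 probe sets and 425 genes, 129 of which have a name.

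**Figure D1:**
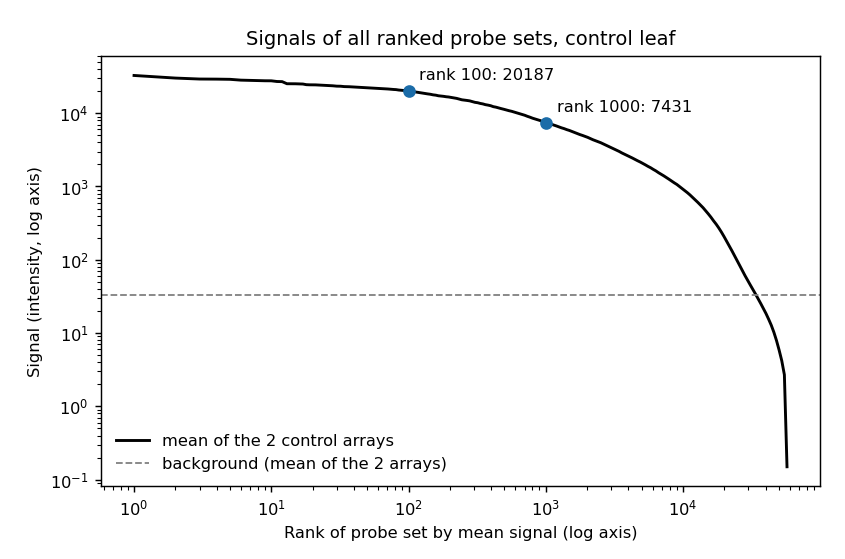
Mean signal of the 2 control arrays (vertical, log axis) against the rank of each of the 57258 probe sets (horizontal, log axis), with the mean of the 2 background levels as a dashed line. The curve is nearly flat to rank 100, at 20187, and passes 7431 at rank 1000 before it falls through the background level.

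The 2 control arrays were close to each other. Over the 31396 probe sets above background, the median difference between them was 1.09-fold and the 95th percentile 1.63-fold, with a Pearson correlation of the log2 signals across probe sets of 0.989. The spread narrowed with signal: the median difference was 1.26-fold for mean signals under 100, 1.10-fold from 100 to 1000, 1.05-fold from 1000 to 10000 and 1.04-fold above 10000. Signals at least 2-fold apart were seen in 460 probe sets, 1.47%, of which 321 were higher in replicate 2 and 139 in replicate 1. All but 1 of those 460 had a mean signal of 1000 or less.

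Only 8 of the 2271 named genes above background were 2-fold apart or more, and their mean signals lay between 57.9 and 515. The widest gap was in ABCG45, an ABC transporter, with 30.2 and 94.9, a 3.14-fold difference. The pyruvate decarboxylase gene PDC, which belongs to ethanol fermentation, gave 56.9 and 175.2. RAG2, a seed allergen gene, gave 49.7 and 141.2 and Hox11, a homeodomain-zipper factor, 43.3 and 115.3. In all 4 of these replicate 2 was the higher array. The peptide gene RTFL3 (38.4 and 89.7), Rbr1 (35.2 and 80.6) and the auxin repressor IAA19 (321.6 and 707.6) were also higher in replicate 2. CYP76M7, a cytochrome P450 of diterpenoid defence synthesis, was the only one of the 8 that was higher in replicate 1, with 84.7 and 42.1.

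A larger source of spread than the arrays was the choice of probe set. Of the 3293 genes with several probe sets and the brightest above background, the brightest and the dimmest differed by a median of 4.87-fold, with dim signals set to the background level. The quartiles of this ratio were 2.04-fold and 18.1-fold, and 35.9% of them were 10-fold apart or more. Some probe sets have names that mark them as able to hybridise to several transcripts (endings _x_at and _s_at). Without them 1957 such genes still had several probe sets, and in this smaller set the median was 7.73-fold. Paralogs that differ by a few fold are thus apart by less than probe sets of 1 gene often are. A difference between paralogs in the paragraphs below is one of signals measured on these arrays. Values called indistinguishable have overlapping 2-array ranges, but not every overlap is pointed out. The order of listed members is resolved only where the ranges of their printed values are apart.

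**Figure D2:**
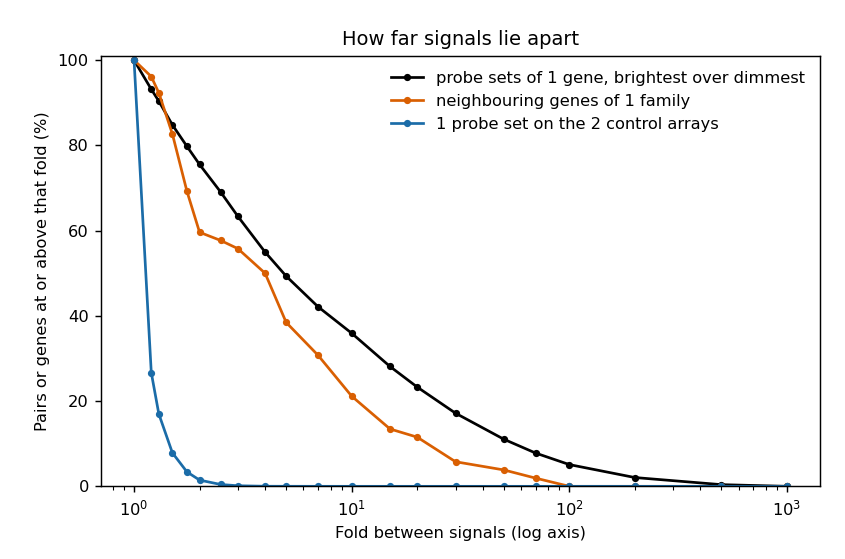
Share of cases (vertical, percent) at or above a given fold (horizontal, log axis) between the 2 arrays for 1 probe set, between the brightest and dimmest probe set of 1 gene, and between genes of 1 family that are neighbours on the chromosome. At 2-fold the shares were 1.47% for arrays, 75.5% for probe sets of a gene and 59.6% for neighbouring family members. The shares rest on unlike filters. Arrays are compared over the 31396 probe sets above background, and neighbours over the 52 pairs with both genes above it. For probe sets of a gene, only the brightest had to be above background, and dim signals were set to the background level.

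The highest signal of any annotated gene was that of MT2C, which encodes a type 2 metallothionein, a small cysteine-rich protein that binds metals, with 31513 and 33940.4. Its paralog MT2B ranked at place 3 among all genes with 29174 and 29341. Between them lay CAB2R, a chlorophyll a/b binding protein of the light-harvesting antenna, with 28773 and 31535. The 3 means were 32727 ± 1716, 29258 ± 118 and 30154 ± 1953 (SD, n = 2 arrays each) for MT2C, MT2B and CAB2R. The range of CAB2R overlapped that of MT2B and, narrowly, that of MT2C, while the ranges of MT2C and MT2B were apart.

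Next came genes of carbon fixation. ALDP, the plastid fructose-bisphosphate aldolase, gave 25671 and 28475, and rcaA1, the activase that keeps Rubisco open for catalysis, gave 25009 and 25478. RBCS, a Rubisco small subunit, followed with 23575 and 23840.0. All of these were among the 12 brightest of 17905 genes.

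Light reactions filled many of the next places. RCABP89, another chlorophyll a/b binding protein, gave 22485 and 24856 and LIR1, a light-induced gene, 22819 and 23880.2. A gene listed as ferredoxin (ADI1), the electron carrier after photosystem I, gave 22699 and 23967. LP02, also listed as OEE3, a protein of the oxygen-evolving side of photosystem II, gave 21706 and 22684. The plastocyanin gene PETE, whose product carries electrons between the cytochrome complex and photosystem I, gave 20496 and 22282, and petC, the Rieske protein of that complex, 19318 and 18384. The plastid ATP synthase subunit gene atpI, which lies in the chloroplast genome, was measured at 22144 and 21485. RCABP69 closed the 30 brightest named genes with 16522 and 18612.

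Genes used in most cells held many of the other places. TCTP, a translationally controlled tumour protein homolog, gave 22632 and 23200.3, GOS2, a translation initiation factor, 22124 and 23561, and GAPC, cytosolic glyceraldehyde-3-phosphate dehydrogenase, 22089 and 23063. The elongation factor gene EF-1-alpha had 20541 and 20737, the HSP90 chaperone HSP81-3 20637 and 21051, the alpha-tubulin TID1 18095 and 20174 and the small GTPase RAN2 17225 and 18017. A gene listed as ARF (LOC4339157), which is not numbered as an auxin response factor, gave 21768 and 24378, and PP37 gave 21119 and 20276. These signals lay within a narrow band, and 24 of the 29 neighbouring pairs among the 30 brightest named genes had overlapping ranges.

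Members of regulatory, transport or defence families also stood in this group. BIPP2C1, a type 2C protein phosphatase, gave 21862 and 21978 on its brightest probe set and a mean of 1502 on its other one. OC-I, the oryzacystatin that inhibits cysteine proteases, gave 19892 and 20482. The potassium transporter gene HAK5 gave 19019 and 19923, the homeodomain-zipper factor Hox16 19391 and 19219, the auxin repressor IAA17 17612 and 18380.5 and the jasmonate repressor TIFY10B 17472 and 18329. Replicate 2 was the higher array in 26 of the 30 brightest named genes, by at most 1.13-fold over all 30.

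**Figure D3:**
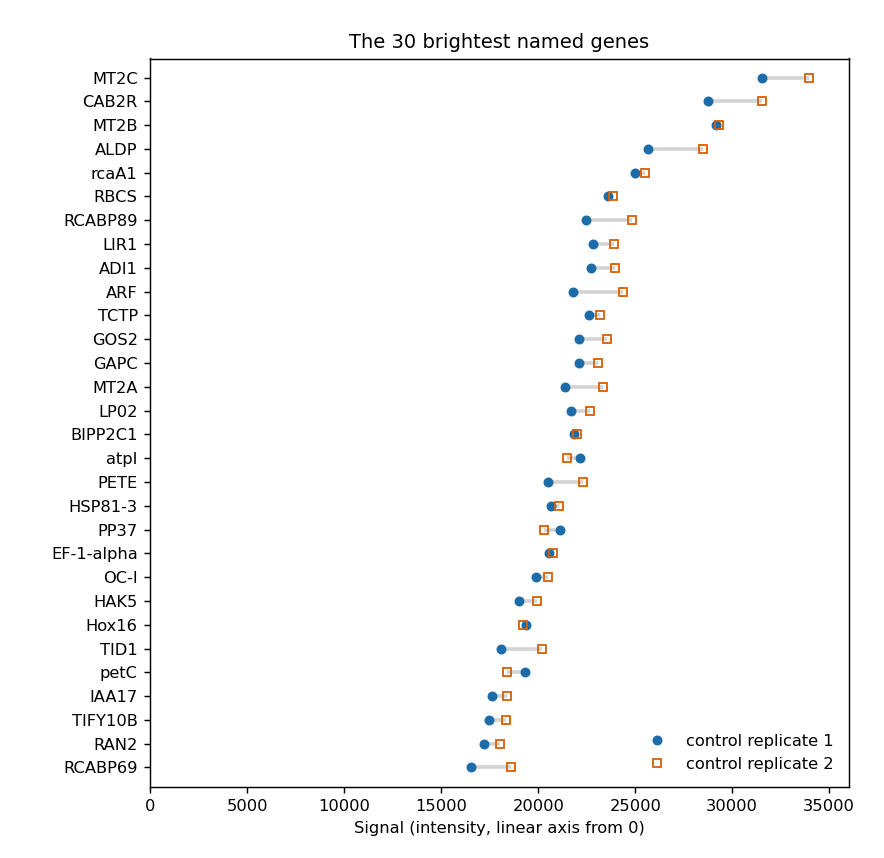
Signals of the 30 named genes with the highest mean (linear axis from 0), with replicate 1 as filled circles and replicate 2 as open squares. The means ran from 17567 for RCABP69 to 32727 for MT2C, and the pairs of most neighbouring genes overlap.

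Of these 30 brightest probe sets 12 end in _x_at or _s_at, so close relatives may add to them. RBCS, ALDP, MT2A and HSP81-3 are among them. Of the 17 genes with more than 1 probe set, 6 had another one with a mean at or below background. RBCS for example ranged down to a mean of 3.9 and Hox16 to 2.95. Among the 100 brightest genes 70 have no usable name, and 26 of the 100 brightest probe sets belong to no single annotated gene.

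For photosystems and light harvesting, all 10 measured members were above background, with a median percentile of 99.5. PSAH, a photosystem I subunit, gave 14398 and 15425, and the leaf ferredoxin-NADP reductase LFNR1 13018 and 13628. Lowest were PSAG, another subunit of photosystem I, with 3649 and 3289.9 and PSB28, a factor of photosystem II, with 2504 and 2322. The 2 lowest thus lay below the other 8 by more than the spread between arrays. FtsH proteases, some of which renew photosystem II, were all above background as well, with FTSH2 at 12618 and 13393, FTSH1 at 8092 and 8532 and FTSH3, the lowest, at 377.7 and 391.2.

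Rubisco small subunits were measured by unequal probes. RBCS was at 23575 and 23840.0, while RBCS1, its paralog, was at 12.8 and 2.3 and so below background on both arrays. The single probe set for RBCS1 gives only this bound. The value of RBCS comes from the brightest of 4 probe sets, one that may hybridise to relatives, and the dimmest of the 4 was below background too, with a mean of 3.9.

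In photorespiration, which recycles the product of Rubisco's reaction with oxygen, and in the removal of its hydrogen peroxide, all 8 members were above background (median percentile 97.5). On their brightest probe sets, the glycolate oxidase genes fell into a bright and a dim pair. GLO5 gave 12819 and 13444 and GLO1 10829 and 11428, against 3763 and 3934 for GLO4 and 3375 and 3531 for GLO3. The dimmest of 3 probe sets of GLO5 had a mean of 143.75 and the dimmer of 2 of GLO1 one of 2047.7. Both means lie below the single probe sets of GLO4 and GLO3, and that of GLO4 may hybridise to relatives. CAT-A, a peroxisomal catalase, with 13031 and 12865 was indistinguishable from GLO5 and above CAT-B (5459 and 6367). GDCSH, the H protein of glycine decarboxylase, gave 8911 and 9832.

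On the brightest probe sets, nitrogen assimilation had its highest signals in the plastid route. The plastid glutamine synthetase GLN2, which fixes ammonium released by photorespiration, gave 13899 and 14203, and the ferredoxin-dependent glutamate synthase Fd-GOGAT 10953 and 10602. GLN2 has another probe set with a mean of 57.55, and the 3 of Fd-GOGAT ran down to 804. Their lead over GLN1-1, which has 1 probe set, thus rests on the brightest ones. Cytosolic GLN1-1, linked to nitrogen export from leaves, gave 9407 and 10633, a range that overlapped that of Fd-GOGAT. GLN1-2 (3376 and 3236) and GLN1-3 (180.5 and 263.1) lay below it. Nitrate reductase NIA1 was at 4742 and 4764. Glutamate dehydrogenases spanned a wide range, with GDH2 at 2874 and 2977, GDH1 at 1371 and 1307 and GDH3 at 40.1 and 52.2, just above background.

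Transporters that take up nitrate and ammonium were dim. Their 11 members had a median percentile of 21.8, with 10 above background. AMT1-1 (2585 and 2654) and AMT2-1 (2205 and 2138), both ammonium transporters, were the brightest, followed by the nitrate transport partner NAR2.2 (496 and 479.4). AMT3-2 gave 414 and 482.5, AMT3-3 334.6 and 332.8 and the nitrate transporter NRT2.3 138.9 and 159.7. AMT2-2, with 17.3 and 29.2, was not above background on either array.

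Chlorophyll synthesis gave signal in all 16 measured members (median percentile 86.7), 14 of them over 1000 on both arrays. CHLP, the geranylgeranyl reductase that makes the phytol tail, was brightest with 9150.1 and 9515. The light-dependent protochlorophyllide reductase PORB (8292 and 8680.3) exceeded its paralog PORA (4359 and 4734), but the probe set of PORB may hybridise to relatives. GluTR, which makes the first committed precursor, gave 6659.8 and 6963, CPX, a coproporphyrinogen oxidase, 6258 and 6617 and GSA 6079 and 6435. Of the subunits of magnesium chelatase, CHLH gave 4786 and 4728, CHLD 2246.6 and 2214.5 and CHLI, the lowest of the list, 286.7 and 285.3. CHLH has another probe set with a mean of 121.95, below the only one of CHLI. In breakdown, NYC1, a chlorophyll b reductase, gave 5447 and 5716 and SGR, the stay-green protein, 4036 and 3943, while RCCR1 (1159 and 1092) and NOL (1054 and 1056) were lower. Genes for making and for dismantling chlorophyll were thus measured side by side in the same leaf.

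For sugar metabolism, 2 of 6 sucrose synthases carried most of the signal. SUS1 gave 12908 and 13018 and SUS2 11326 and 11246, whereas SUS4 gave 1109 and 1194 and SUS3 321 and 314.3. SUS5 (210.7 and 166.5) and SUS6 (192 and 185.8) were indistinguishable. SUS1 exceeded SUS2 on its brightest probe set, but averaged over probe sets SUS2 was the higher.

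Invertases, which split sucrose, were led by CIN1 (cell wall type) with 6152 and 6278, then NIN3 with 3745 and 3563 and CINV1 with 3207 and 3114. CIN7 gave 1292 and 1359, NIN1 889.7 and 708.8 and CIN4 387 and 348.4. CIN3, with 36.7 and 4.1, exceeded background on 1 array only, although it is the neighbour of CIN2 (164.9 and 194.8) on the chromosome.

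Among sucrose transporters SUT2, of the vacuole membrane, gave 4308 and 4806, SUT4 1815 and 1794 and SUT1, which loads the phloem, 1066 and 1264. SUT5 (7.5 and 24.7) was not above background. SWEET sugar exporters ranged more widely. SWEET4 gave 10414 and 10815, above SWEET1A (4545 and 4807), SWEET1B (2386 and 2331) and SWEET2A (2210.2 and 2255). SWEET6B (618.7 and 632.6) and SWEET11 (612.6 and 619.6) were indistinguishable from each other, and SWEET12 (7 and 2) was at background. SWEET11 and SWEET14 are measured by probe sets that may hybridise to relatives.

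Starch synthesis genes were split between forms. The branching enzyme Sbe1 gave 5738 and 5658, the ADP-glucose pyrophosphorylase subunit AGPS2 4246 and 3967, and the starch synthases SSI 2159 and 2186 and SSII-2 2019 and 2024. GBSS-I, the Waxy enzyme of endosperm amylose, gave 469.7 and 546.5, SSII-1 303.2 and 207.9 and SSII-3 30.6 and 58.7, the lowest of the 7. GBSS-I and SSII-3 were each below those named before them, by more than the spread between arrays. The value of GBSS-I comes from a probe set that may hybridise to relatives, and its 6 probe sets ran down to a mean of 2.8. Sbe1 has 8 probe sets, whose means ran down to 3.85.

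Aquaporins, the membrane channels for water and small solutes, were among the brightest transporter families. Of 10 plasma membrane (PIP) members 9 were above background, with a median percentile of 96.3 and 7 members over 1000. PIP2-7 gave 15943 and 16605 and PIP1-2 15955 and 15643, which are indistinguishable. PIP1-1 (10595 and 11058) and PIP2-1 (10001 and 11448) were the next overlapping pair, followed by PIP2-2 (8345 and 8431) and PIP2-6 (7303 and 7648). The low end held PIP2-4 (233.1 and 332.4), PIP2-5 (170.3 and 140.9) and PIP2-8 (34.7 and 10.5), of which PIP2-8 exceeded background on 1 array only. PIP1-3 (4458 and 4813) lay between these groups.

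Tonoplast (TIP) aquaporins split in the same manner. TIP4-1 gave 15345 and 17968 and TIP1-1 14543 and 15619, with overlapping ranges, then TIP1-2 8133 and 8125 and TIP2-2 7938 and 7818. TIP4-2 gave 943 and 1002. Near background were TIP2-1 (54.9 and 52.2) and, of a class known from seeds, TIP3-2 (87.5 and 70.7) and TIP3-1 (50.1 and 27.8). TIP3-1 was above background on 1 array only. TIP4-1 has another probe set with a mean of 35.9. The brightest probe sets of TIP2-2, TIP4-2, TIP2-1 and TIP3-1 may hybridise to relatives. In the NIP group, NIP2-2, a silicon channel, gave 5107 and 5112 from a probe set that may hybridise to relatives (without such probe sets NIP1-1 was the brightest), and NIP2-1, the silicon channel of roots, 1667 and 1756. NIP1-1 gave 4022 and 4613 and NIP3-1, a boron channel, 1.2 and 26.8, not above background.

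Potassium transporters had 1 member well ahead of the rest, with 38.7% of the summed signal of the family. HAK5 at 19019 and 19923 stood 3.69-fold above HAK17 (5690.1 and 4869.8), followed by HAK7 (3923 and 3914), HAK18 (3535 and 3454), HAK1 (2992 and 3225) and HAK27 (2882 and 2764). HAK20 (11.7 and 3.9) and HAK26 (1.3 and 11.4) were at background, and the other 20 of 22 members were above it. HAK5 has a further probe set with a mean of 301.

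Phosphate transporters of the PHT1 family had the lowest median percentile of all 80 lists, 7.90, and only 4 of 9 were above background against 90.5% of all genes. Yet 2 members were bright. Pht1;8 gave 7094 and 7669 from a probe set that may hybridise to relatives, and Pht1;1 gave 6677 and 6562. Pht1;4 gave 589.1 and 619.8 and Pht1;3 158.2 and 171.5. The other 5, among them Pht1;2 (20.7 and 12.9) and the root and symbiosis genes Pht1;6 (26.1 and 26.3) and Pht1;11 (11.7 and 34.4), were not above background on both arrays. Pht1;12 (34.2 and 33.9) and Pht1;7 (19.3 and 38.3) exceeded it on 1 array.

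Among metal transporters, YSL proteins, carriers of metals bound to nicotianamine or phytosiderophores, had 10 of 15 members above background. YSL6 gave 5044 and 5116, YSL13 2836 and 2824, YSL16 2797 and 2728 and YSL12 1586 and 1772. YSL4 (0.8 and 2.7) and YSL11 (12.3 and 27.1) were at background. The ZIP zinc carriers peaked at 2225 and 2110.5 for ZIP6 and 1878 and 1811 for ZIP8, while the iron uptake genes IRT1 (213.6 and 203.6) and IRT2 (17.2 and 50.5) were low, IRT2 above background on 1 array only. NRAMP2 (2298 and 2298) led its family of 6, all above background, and NRAMP5, the manganese and cadmium uptake carrier of roots, gave 413.7 and 473.5.

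Cytokinin signalling runs from histidine kinase receptors over phosphotransfer proteins to type-B response regulators, which switch on type-A regulators that dampen the signal. Among receptors, HK3 gave 2952 and 2887, HK5 1549 and 1521, HK4 528.5 and 576 and CHARK 147.2 and 150.8. The phosphotransfer protein AHP2 gave 4575 and 4716, AHP1 1632 and 1511 and the related PHP5 429.1 and 389.5. All 4 type-B regulators were measured above background, RR21 at 4929 and 4549.9, RR24 at 1664 and 1812, RR23 at 743.3 and 748.6 and RR22 at 668.9 and 707.6.

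No ranges of the 6 measured type-A regulators overlapped. RR9 was highest with 3485 and 3596, and RR6, the gene that the other arrays of the series overexpress, gave 2559 and 2733 in the control leaf. RR4 followed with 902.5 and 856.5, RR1 with 647.1 and 588.8 and RR2 with 391.4 and 362.1. RR5 (5.7 and 12.4) was below background on both arrays. The probe set of RR4 may hybridise to relatives.

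Cytokinin activation and breakdown genes gave uneven signals. LOGL3 gave 8382 and 8763 and LOG itself, first known from the shoot meristem, 4928 and 5039 on its brightest probe set. The other probe set of LOG had a mean of 33.5, about the mean background of 33.39. LOGL9 gave 1076 and 994.6 and LOGL6 (12.4 and 76.3) exceeded background on 1 array. Of the cytokinin dehydrogenases, CKX4 gave 1692 and 1574, CKX5 1077 and 1146, CKX11 716 and 758.3 and CKX3 56.1 and 60.8. CKX1 (2.7 and 10.9) was at background.

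Auxin signalling showed a broad ladder of levels. Of 17 auxin response factors, the DNA-binding proteins of the pathway, 16 were above background and 13 over 1000. ARF4 led with 8252 and 8379, then ARF23 (3789 and 3954), ARF9 (3328 and 3335), ARF12 (2555 and 2431), ARF18 (2444 and 2231) and ARF15 (2319.9 and 2335). ARF13 (49.2 and 7.7) exceeded background on 1 array. Their Aux/IAA repressors reached higher, with IAA17 at 17612 and 18380.5, IAA3 at 14835 and 14775, IAA13 at 11402 and 11853, IAA21 at 6445 and 7249, IAA5 at 5654 and 5696 and IAA15 at 4824 and 5027. Without probe sets that may hybridise to relatives IAA3, not IAA17, was the brightest of the 26. IAA20 (6.7 and 19), IAA26 (5 and 7.5) and IAA16 (4.4 and 3.7) were at background. The GH3 enzymes, which conjugate auxin or jasmonate to amino acids, had a low median percentile of 27.3; GH3.5 gave 2073 and 2188, GH3.2 766.4 and 885.7, GH3.8 698.1 and 586.2 and GH3.9 62.7 and 39.2.

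Jasmonate genes stood out by their repressors. All 13 measured JAZ proteins (named here by their TIFY numbers, since JAZ numbers differ between naming schemes) were above background, 12 of them over 1000, with a median percentile of 96.4 among all genes. TIFY10B gave 17472 and 18329, TIFY3 14730.3 and 14879, TIFY11B 14328 and 14407, TIFY10A 12933 and 14103, TIFY11D 9234 and 8934 and TIFY6B 8265 and 8567. TIFY5 was the lowest with 778.6 and 693.8. Upstream, the cyclase AOC gave 12771 and 13434 and the allene oxide synthases AOS1 3299.7 and 3367 and AOS2 549.9 and 570.4, while AOS3 (1.9 and 24.1) and AOS4 (20.8 and 2.8) were at background. Among lipoxygenases LOX5 gave 7452 and 8134, LOX8 2422 and 1871 and LOX9 1649 and 1592. LOX3 (28.5 and 33.2) was not above background.

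Abscisic acid acts through SAPK kinases, which some of the type 2C phosphatases hold in check. Of the 10 SAPK kinases, all above background, SAPK2 gave 8356 and 8884, 3.06-fold above SAPK8 (2909 and 2719.5), and SAPK10 was lowest with 294.4 and 340.0. SAPK6 (2453 and 2064) overlapped both SAPK4 (2546 and 2414) and SAPK5 (2109.9 and 2321), which were apart from each other. Of 55 type 2C phosphatases with a PP2C number, a set without BIPP2C1, 53 were above background, led by PP2C30 (9512 and 9184), PP2C28 (7756 and 7079), PP2C40 (5939 and 5982) and PP2C32 (5199.5 and 5614). PP2C18 (10.5 and 10.6) and PP2C31 (1.9 and 1.7) were at background. The ethylene receptor ERS1 gave 5134 and 5129, ETR3 1817 and 1816, ETR2 1039.8 and 1022 and ERS2 653.7 and 628.2; ETR4 (1.1 and 34.5) was not above background. SAM1 (15152 and 15872) and SAM2 (10475 and 10669), which make the methyl donor from which ethylene is built, and the last enzyme ACO1 (3254 and 3433) were bright, while the rate-limiting ACC synthases ACS2 (154.9 and 190.5) and ACS1 (8.7 and 7.4) were dim or at background.

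All 7 measured clock genes were above background and over 1000, with a median percentile of 91.5. PRR95, a pseudo-response regulator of the day, gave 17171 and 16303, the highest of them. GI, a daytime clock protein that also promotes flowering, gave 9382 and 9275, PRR73 8445 and 8606, PRR1, the evening gene, 4813 and 4742 and PRR37 3425 and 3238. The morning gene LHY was low by comparison with 1953 and 1939, and PCL1, an evening gene, was lowest with 1349 and 1177. Clock transcripts swing over the day, so this order holds for an unstated hour.

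Phytochromes, the red-light receptors, were near each other, PhyB at 2907 and 2890.1, phyC at 2821 and 2499.8 and PHYA at 2375 and 2421. Of the heading genes, Hd3a, the florigen made in leaves, gave 413 and 397.5, and Hd1, which controls it, 42 and 15.5, above background on 1 array only. Ehd4 gave 2101 and 2172, Hd18 1304 and 1534, Hd16 1064 and 1044 and Ehd3 1043 and 1030.0. GHD8 (207.9 and 193.4) and FTIP1, which carries florigen to the phloem, (202.3 and 211.4) were indistinguishable.

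MADS-box factors, many of which set floral organs and flowering time, were mostly dim. Their median percentile was 29.6, and 24 of 31 were above background. MADS15 (4998 and 4969) and MADS55 (5001 and 4947) were indistinguishable at the top, followed by MADS14 (4905 and 4848), MADS22 (4510.4 and 4581), MADS18 (4002 and 4106) and MADS56 (2573 and 2663). MADS14, MADS15 and MADS18 belong to the group that promotes the floral transition. At background on both arrays were MADS21, MADS30, MADS29, MADS20, MADS33 and MADS25, the last with 3 and 2, and MADS23 (48.4 and 31.6) exceeded it on 1 array.

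Among homeodomain-zipper factors Hox16 (19391 and 19219) stood 4.72-fold above Hox15 (4181 and 3996). Hox5 (2955 and 3167), Hox1 (2651 and 2511), Hox4 (2177 and 2095) and Hox22 (1761 and 1822) came next, and Hox14 (30.4 and 32.7) was above background on 1 of 2 arrays. Growth-regulating factors were dim apart from GRF11 (3544 and 3184), which exceeded GRF6 (398.8 and 395.6) by 8.47-fold. GRF3 (329.6 and 299.5), GRF4 (295.9 and 259.6), GRF5 (244.8 and 240.1) and GRF1 (181.4 and 240.6) followed, and GRF12 (20.8 and 42.6) passed background on 1 array.

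YABBY factors, which take part in the growth of leaves and floral organs, had a median percentile of 20.3. YABBY1 gave 3087 and 3001, YABBY2 1879.7 and 2011 and YABBY6 972.6 and 926.4. The brightest probe set of YABBY1 may hybridise to relatives, and without such probe sets YABBY2 was the brightest. The others, from YABBY4 (139.9 and 126.4) to YABBY7 (38.2 and 30.6), were dim, YABBY7 above background on 1 array only. WOX factors were dimmer, led by WOX8 with 724.2 and 675 and WOX11 with 202.5 and 209.3; WOX4 (9.5 and 13.9) and WOX10 (7.3 and 2.8) were at background and WOX7 (30.1 and 12.4) above it on 1 array. Homeobox genes HOS59 (13915 and 14330.3) and HOS58 (9857 and 10261) were bright. In the WRKY group, WRKY71 (9088 and 9122), a defence and hormone regulator, exceeded WRKY24 (1895 and 1694) by 5.07-fold, and WRKY62 (486.4 and 448.1) was lowest of 6.

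Antioxidant enzymes held many bright members. All 4 superoxide dismutases lay at the percentile 94.4 or higher, the cytosolic SODCC.1 at 10922 and 11567, the plastid sodCp at 9441 and 9528, SODCC.2 at 8636 and 9035 and the mitochondrial sodA at 6437 and 6127. Ascorbate peroxidases, which use ascorbate to remove hydrogen peroxide, were led by the cytosolic forms APX2 (16105 and 17929) and APX1 (10286 and 10798), ahead of APX8 (7011 and 7222), APX4 (5606 and 5916), APX7 (3972 and 3767) and APX6 (2173 and 2107), and APX5 was lowest with 470.6 and 483.6. Glutaredoxins, small thiol reductases, were all above background, GRXC6 (9991 and 9915), GRXS5 (9327 and 9449.8) and GRXS9 (7276 and 6134) in front and GRXC3 (59.4 and 77.9) last. The glutathione transferase GSTF2 gave 14813 and 15754 and the protein disulfide isomerase PDIL1-1 13266 and 13781, 2.40-fold above PDIL2-1 (5899.5 and 5370.1).

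Metallothioneins had a median percentile of 99.4. Beside MT2C and MT2B, MT2A gave 21357 and 23347 and MT1A 17256 and 16783. MT4A gave 4512 and 4882, which overlapped MT1B (4008 and 4520.1), and MT4C, its neighbour on the chromosome, gave only 207.3 and 187.6. All other neighbours in this order had ranges that did not overlap.

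Chaperones spanned a wide range of signals. HSP81-3 (20637 and 21051) and HSP81-2 (13803 and 14134), both HSP90 proteins, and the plastid chaperones CLPC2 (15646 and 16119.6) and CLPC1 (13879.7 and 12239.8) were bright. The heat-induced CLPB1 was low with 182.6 and 120.4, and BIP4, an endoplasmic reticulum chaperone, was at background with 14.7 and 2.8 beside its bright paralog BIP1 (5393 and 5847). Small heat shock proteins had a median percentile of 30.3, with 16 of 19 above background. HSP17.9B gave 6686 and 7066, HSP18.8 3299 and 3194, HSP18.0 3156 and 3194, HSP17.9A 1193 and 1284, HSP16.9A 976.9 and 1047 and HSP16.9B 687.5 and 581.6. HSP21.9 (18.2 and 21.1) and HSP23.2 (4.1 and 17.9) were at background. Of the heat shock factors HSFA2D gave 5224 and 5426, HSFA3 2615 and 2723 and HSFA1 2267 and 2434; HSFB2B (14.6 and 2.2) was at background and HSFA2A (51.3 and 23.8) above it on 1 array.

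Dehydrins and other LEA proteins, which protect drying cells and seeds, were dim with 1 exception. Dhn1 gave 10383 and 10092, 38.9-fold above the next member, RAB21 (240.5 and 285.5), the widest gap between a first and second member in the lists. RAB16C gave 188.6 and 183, RAB16B 140.2 and 88.2, LEA3 93.8 and 60.1 and EM, a late embryo gene, 38.1 and 69.2. RAB16D (25.7 and 13.2) was at background. Dhn1 has 3 probe sets, and the dimmest had a mean of 46.5.

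Calcium signalling families each had a few bright members. CML16, a calmodulin-like protein, gave 12701 and 12714, ahead of CML31 (8238 and 8374), CML7 (7954 and 7865) and the calmodulins CAM3 (7765 and 7356) and CAM1 (6314 and 6034); CML28 (3.8 and 2.3) was the only 1 of 26 at background. The calcium-dependent kinase CPK13 gave 10999 and 11526, CPK1 6406 and 6303, and CPK19 (5444 and 6019.5) and CPK4 (5415 and 5774) overlapped. CPK2, CPK29 and CPK22 (4.1 and 7.6) were at background. Of the CIPK kinases CIPK1 (6926 and 6459) and CIPK2 (6219.9 and 6017) led, and CIPK30 (19.3 and 10.6) was at background; CBL3 (2689.5 and 2502) and CBL6 (2032 and 2015) were the brightest of their CBL partners. Mitogen-activated kinases were all above background, with MPK14 (5051 and 5169) and MPK7 (5176 and 5024) indistinguishable at the top and MPK17 (77.4 and 95.4) lowest.

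In the cell wall, cellulose synthases were bright as a family, with all 9 above background and a median percentile of 91.8. The primary-wall members CESA3 (10785 and 10621), CESA1 (9576 and 9963), CESA8 (5998 and 6066) and CESA6 (4972 and 4959.8) led. CESA7 (4725 and 4996), which overlapped CESA6, and CESA4 (4460.5 and 4233), both of secondary walls, came next. CESA5 gave 2807 and 2517, CESA9 gave 1147 and 1214 and CESA2 was lowest with 252.4 and 248.4. The cellulose synthase-like CSLE1 gave 3314 and 3308 and CSLF6, which makes mixed-linkage glucan, 2308 and 2443, while CSLF7 (18.9 and 23.4) was at background. Expansins, which loosen walls in growing cells, had a median percentile of 37.1 and 6 of 29 members at background on both arrays. EXPB3 gave 6726 and 7018, EXPA2 3015 and 2765, EXLA1 2529.5 and 2579.8 and EXPA7 2126 and 1925; the lowest was EXPA32 with 2.4 and 3. For lignin precursors, PAL gave 15255 and 15775 and CAD2 8573 and 9378, and CAD8A was lowest of 14 with 96.8 and 57.7. Laccases, with a median percentile of 22.9, reached 1836 and 1943 in LAC10 and fell to background in LAC15 (22.4 and 32.5).

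Defence genes differed by class. Of 12 chitinases, enzymes that attack fungal walls, 9 were over 1000 on both arrays, with Cht1 at 5879 and 5882, Cht5 at 4839 and 5274, Cht7 at 4864 and 4958, Cht4 at 4559 and 4459 and Cht11 at 4090.2 and 4149, and Chib3H-h (16.7 and 72.9) above background on 1 array. Diterpenoid synthesis, the route to rice phytoalexins and in part to gibberellin, was dim, with a median percentile of 22.7. KS1A (1121 and 1288) and CYP71Z6 (1122 and 1276) were indistinguishable, CPS2 gave 1034 and 619.9 and CPS1 434.8 and 396.2, and KSL4 (41.1 and 25) passed background on 1 array. Cystatins ranged from OC-I (19892 and 20482) and OC-III (12840.3 and 13661) down to OC-IV (30.9 and 22.2), and germin-like proteins from GER5 (4625 and 5009.8) to GER3 (66.6 and 93.7). The beta-glucosidase BGLU7 gave 8782 and 9238, 2.55-fold above BGLU30 (3370.3 and 3699), and BGLU38 was at background with 21.5 and 0.9. BURP17 gave 16569.9 and 16502, while BURP16 (10.5 and 4.3) and BURP10 (2.3 and 9.4) were at background.

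Genes of the cell body and of division lay at different levels. All 23 ribosomal protein genes measured were over 1000, with a median percentile of 96.3 and RPS21 at the top with 14612 and 15768. Actins were bright, ACT7 at 15081 and 14644, ACT1 at 11200.0 and 11651, ACT2 at 8785 and 8795 and ACT3 at 7233 and 7676, as were beta-tubulins, of which TUB1 (9645 and 11355) overlapped both TUB3 (11007 and 11280.4) and TUB5 (10664 and 10075). Histone H2B members ran from 8136 and 8388 in H2B.5 to 2723 and 2827 in H2B.10. Of the 14-3-3 proteins GF14F was brightest with 16046 and 16822. It was kept out of the list of 6 because it is also listed under the name GF14a, and that list ran from GF14C (10983 and 11932) to GF14G (271.3 and 304.7). By contrast, the 30 DNA replication genes, although all above background, had a median percentile of 31.3. RPA3 gave 1852 and 1922, RFC2 1222 and 1230.0 and PCNA, the sliding clamp, 945.8 and 1049, and MCM8 was lowest with 30.5 and 37.1. Kinesins had a median percentile of 33.2, from 1951 and 1939.9 in KIN7C to 54.4 and 76.6 in KIN7A, and cyclins and their kinases of 37.4. There CDKG-1 gave 3399 and 3172, CDKA-1 1516 and 1810.0 and the mitotic cyclin CYCB1-3 32.5 and 22.6, above background on 1 array.

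**Figure D4:**
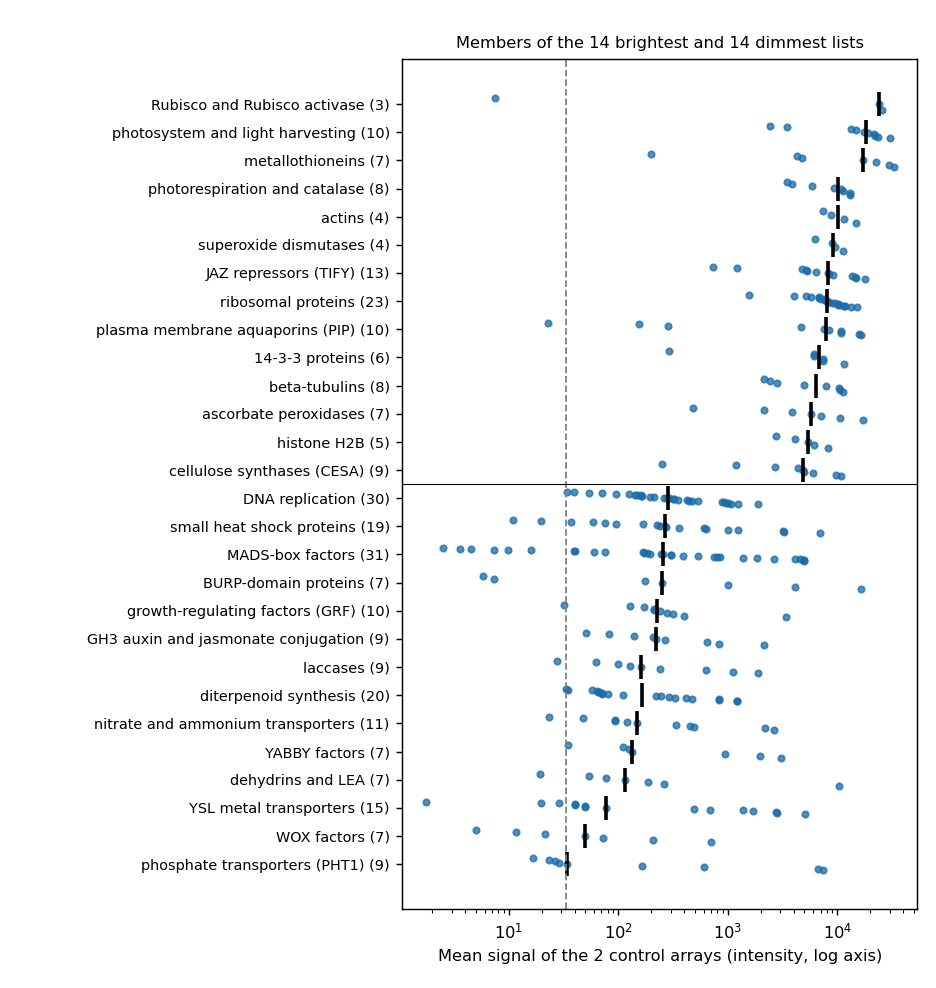
Mean signal on the 2 control arrays (log axis) of every measured member of the 14 lists with the highest and the 14 with the lowest median percentile, with the number of members in brackets, the median member as a black bar and the mean background as a dashed line. The median members of the photosystem, metallothionein, JAZ and PIP lists are at 18209, 17020, 8167 and 7932. Members of the PHT1, WOX, YSL and dehydrin lists spread from background up to 7381.5, 699.6, 5080 and 10238 (Dhn1).

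Over all 80 lists, 901 of 988 genes were above background on both arrays, 91.2%, which is close to the 90.5% of all genes. In 35 lists every measured member was above it. Neighbours in the order of a list had overlapping ranges in 265 of 909 pairs, and in 704 pairs both arrays gave the same order. In 12 of the 61 families a single member held over 50% of the summed signal of the family.

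Members of a family that lie side by side on a chromosome, with at most 4 other genes between them in the RefSeq gene order, formed 63 pairs. Both were above background in 52 pairs, 1 in 10 pairs and neither in 1. The median ratio within the 52 pairs was 3.84-fold, and 11 of them were 10-fold apart or more. HSP16.6 (112.7 and 77.9) and its neighbour HSP17.9B (6686 and 7066) were 72.2-fold apart. PIP2-5 (170.3 and 140.9) and PIP2-1 (10001 and 11448) were 68.9-fold apart, and Pht1;3 (158.2 and 171.5) and Pht1;8 (7094 and 7669) 44.8-fold. BGLU33 (60.9 and 58) lay 27.8-fold below BGLU32 (1606 and 1699), and CML9 (193 and 116.4) 23.0-fold below CAM2 (3533 and 3571). The brightest probe set of BGLU32 may hybridise to relatives, and the other one of that gene had a mean of 202.05. MT4A and MT4C, given above, were 23.8-fold apart, MADS14 and MADS34 (307 and 300.4) 16.1-fold, and EXPB2 (400.3 and 551.2) and EXPB3 14.4-fold. Some neighbours were closer. TIFY11A (4685 and 4783), TIFY11C (8525 and 7808) and TIFY11B (14328 and 14407), which follow each other directly, stayed within 1.76-fold at each step. BGLU9 (540.4 and 445.3) and BGLU10 (580.9 and 479) were 1.08-fold apart and their ranges overlapped.

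Marker genes checked the labelled tissue. Of 7 leaf mesophyll markers, 6 were above background and over 1000 on both arrays, and their summed signal was 107863 and 113735. RBCS1 was the exception, as given above. Markers of seed were mostly at background, with 3 of 10 above it on both arrays. GBSS-I and the glutelin gene GLUA-2 (408.4 and 462.9) were the highest of them, RAG2 gave 49.7 and 141.2, and GLUA-1 (2.8 and 7.9), GLUA-3 (1.2 and 18.8), GLUD-1 (1.7 and 16.8), PROLM25 (15.5 and 1.6) and RAG1 (20.7 and 30.5) were not above background on either array. GLUB-4 (27.1 and 44.9) and GLUB-5 (32 and 30.7) exceeded it on 1 array. The 10 seed markers summed to 1029 and 1302.

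Several genes known from anthers gave high signals in this leaf. All 9 anther and tapetum markers were above background on both arrays, against 90.5% of all genes. Their median percentile was 33.3, and they summed to 14939 and 15558. C6, a lipid transfer protein of the tapetum, gave 5288 and 5682, C4 4115 and 3961 and the tapetum gene RTS 3702 and 4044. RAFTIN1 gave 963.5 and 1019. The other anther and tapetum markers were lower. CYP703A3, for a pollen wall hydroxylase, gave 345.5 and 291.6, the receptor kinase gene MSP1 279.9 and 312.9, the tapetum regulators TDR 102.6 and 102.2 and EAT1 80.0 and 96.4, and PTC1 61.3 and 48. Meiosis genes were also dim, with PAIR2 at 254.8 and 282.8 and MEL1 at 71.1 and 116. DMC1 gave 66 and 39.5, and PAIR1 (24.7 and 25) was at background. The range of PAIR2 overlapped that of MSP1 and lay above those of TDR, EAT1 and PTC1.

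Floral organ identity genes were above background in 10 of 10 cases, close to the 90.5% of all genes. Their median percentile was 30.6, and they summed to 4645 and 5147. MADS16, the petal and stamen gene of class B, gave 1739.9 and 1968, its partners MADS2 639.3 and 966.4 and MADS4 248.9 and 245.2. The class E genes MADS8 and MADS7 gave 746.7 and 744.3 and 526.3 and 539.3, MADS6 336.6 and 262 and the class C genes MADS58 195.6 and 143.7 and MADS3 67.9 and 83.4. DL, which also forms the leaf midrib, gave 96.9 and 121.7, and the ovule gene MADS13 was lowest with 47.1 and 73. Only MADS16 exceeded 1000 on both arrays.

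Of the shoot meristem markers OSH1, a KNOX gene that keeps meristem cells undetermined, gave 1805 and 1943 and FON1, the receptor that limits meristem size, 1135 and 1098, while WOX4 (9.5 and 13.9) was at background. Vascular markers were all above background and over 1000. CESA7, CESA4 and CESA9 were given above, BC1, needed for cellulose in thick walls, gave 1577 and 1487 and SUT1 1066 and 1264. Root markers were mixed, NIP2-1 at 1667 and 1756, IRT1 at 213.6 and 203.6, SHR1 at 114.6 and 138.4, CASP1 (55.1 and 13.9) above background on 1 array and Pht1;6 (26.1 and 26.3) on neither. None of the guard cell markers had an annotated probe set with a matching name. The part that tissue other than leaf blade may have in these values was not tested, and in bulk leaf RNA fewer cells of a type and less RNA per cell cannot be told apart.

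**Figure D5:**
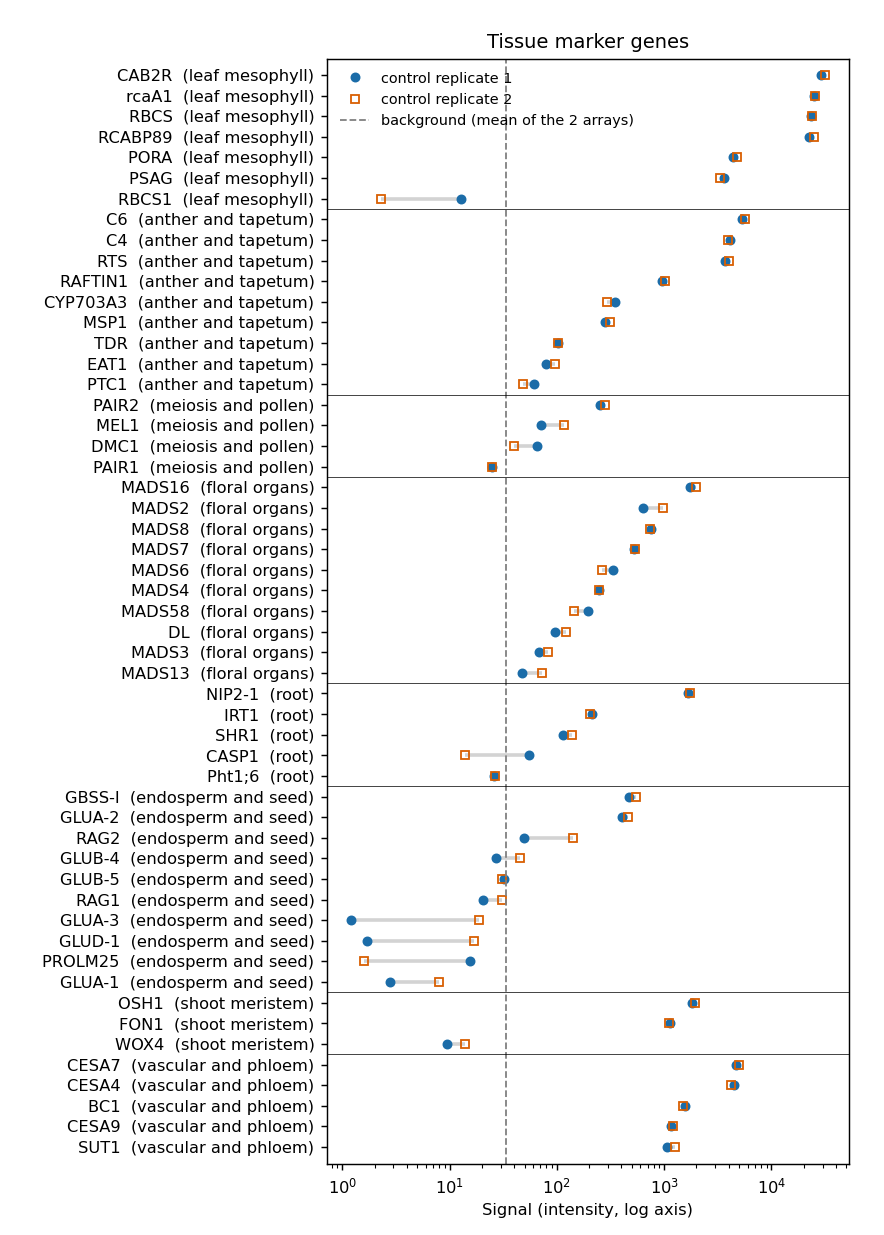
Signals of all measured tissue marker genes on control replicate 1 (filled circles) and replicate 2 (open squares) on a log axis, grouped by tissue, with the mean background as a dashed line. Leaf genes other than RBCS1 lie at 3289.9 or higher, the anther genes C6, C4 and RTS between 3702 and 5682, and most seed storage genes at or below background.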

How the data were processed

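The deposited values are signal intensities on a linear scale, 1 per probe set and array. The authors had scaled them before deposit, since both arrays had the same trimmed mean (500.066 and 500.067, with 2% cut from either tail). The software was not given in the sources used here. Both control arrays were used as deposited, and 2 columns of the overexpressor group were not used.

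Probe sets were named through the platform annotation, updated with RefSeq gene names (assembly ASM3414082v1), which also gave the gene order. Each gene was taken by its brightest probe set. Background was the 95th percentile of 69 control probe sets per array. A range is the span of the 2 arrays. With 1 group there was no test and no p-value. The ranking was checked on simulated data.

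Named are the 30 brightest named genes, up to 6 highest members of each family, its lowest and those at background, all type-A regulators and tissue markers, and the 8 named genes with the widest ratio between arrays. A few further members were chosen after their values were seen. Members and lists were chosen with earlier results of these data known. Alternatives changed the background level, the arrays, the scaling, the probe set per gene and the fold. Python 3.11.15, pandas 2.3.3, numpy 2.4.6, scipy 1.17.1 and matplotlib 3.10.9 were used. The number of arrays limits the precision.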

Additional observations from a re-analysis of the deposited data

Results flagged for a closer look

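Probe sets for reporter and marker genes of other organisms were not part of the ranking of rice genes, and 2 of the 64 gave a clear signal in the control leaf. The brightest had a mean of 8358, with 8053 and 8664 on replicates 1 and 2, which is rank 836 of all ranked probe sets. The other had a mean of 4234, with 3838 and 4630.1, rank 2294. The next reporter probe set had a mean of only 45.3. Of the 64, 5 were above background on both arrays, 9 on 1 array and 50 on neither. Both bright probe sets carry names that the annotation used here does not resolve, so they are left unnamed. The plants carried the vector pActnos/Hmz and were selected on hygromycin.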

How the results depend on the processing

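The count of 31396 probe sets above background on both arrays ran from 23792, with a fixed signal of 100, to 35341 on a single array. Of the 100 brightest genes, 94 to 95 were shared when 1 array was left out, 68 when the probe sets of a gene were averaged and 79 without probe sets ending in _x_at or _s_at. Quantile normalization, median scaling and the mean of log2 signals shared all 100. The brightest member of a family stayed first in 58 to 60 of 61 families without 1 array, in 53 with averaged probe sets and in 56 without _x_at and _s_at. Averaging moved the lead in AMT, sucrose synthases, TIP, MADS, YABBY, ascorbate peroxidases, beta-tubulins and cystatins. The median percentile stayed within 5 points in 80 of 80 lists without either array, in 72 with averaged probe sets and in 61 without _x_at and _s_at. The widest shifts were 23.3 points, for starch synthesis, with averaged probe sets and 24.1 points, for cytokinin receptors and phosphotransfer proteins, without _x_at and _s_at. The 460 probe sets at least 2-fold apart became 14068 with no filter on background and 2469 at 1.5-fold, by construction of those settings. No paired analysis was possible because a single group was described. Signal near background limits the order of dim members.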
